A study of Mus musculus with 28 samples.

Results

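The unfolded protein response genes form a set of 32 listed mouse genes, of which 31 were measured here, out of 22180 genes with a probe set of their own. A gene was taken as measured where a probe set of the deposited value table carried its symbol and no other in the platform annotation, and the brightest probe set stood for the gene (Edem1, Derl2 and Sec61b had several). Pdia4 had no such probe set and was not analysed here. The 31 genes were read by role: 13 chaperones and folding enzymes that are classical ATF6 and XBP1 targets, 7 genes of ER-associated degradation, 3 stress sensors with Xbp1, 6 genes of the ATF4 arm, and Sec61b of the translocon.

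The study profiled whole lungs of newborn mice at postnatal day 0 to ask how lung gene expression depends on HRas and NRas, small GTPases that pass growth factor signals on, when 1 or both are missing. Each of its 28 arrays held RNA of 1 animal. Untreated lungs came from 3 Control, 3 HRas-KO and 3 NRas-KO mice and from 5 double knockouts (DKO). The other 14 came from pups whose mothers received 0.5% N-acetyl cysteine (NAC, an antioxidant and glutathione precursor) during pregnancy, with 4 animals in Control+NAC, 3 in HRas-KO+NAC, 3 in NRas-KO+NAC and 4 in DKO+NAC. The series title states that DKO mice die of respiratory distress. Strain, sex and the construction of the knockout alleles are not given in the sources used here, and nothing in the labels restricts the deletions to a cell type, so lung cells of every kind, and the rest of the animal, may carry them.

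The unfolded protein response adjusts the folding capacity of the endoplasmic reticulum (ER). Its sensors are ATF6, a transcription factor released by cleavage, IRE1 (encoded by Ern1), an RNase that splices the Xbp1 mRNA, and PERK (Eif2ak3), a kinase that phosphorylates eIF2 and so favours translation of ATF4. ATF6 and XBP1 raise ER chaperones, protein disulfide isomerases and degradation factors, while ATF4 raises amino acid and redox genes and the factor CHOP (Ddit3). In the lung around birth, alveolar type 2 cells secrete large amounts of surfactant proteins through the ER. Splicing, cleavage and phosphorylation are not read by these arrays, which give transcript levels only.

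Promoter elements of the members are shown because genes that carry the same element moved in different directions below. A window from 250 bases before to 50 bases after the start was held in the RefSeq table (GRCm38.p6) for 27 of the 31 members, and each motif was searched on both strands. The ER stress response element (ERSE: CCAAT, 9 bases of any kind, CCACG), which contains a CCAAT box, occurred in 9 of these 27 genes and in 0.119% of all 32851 promoters in the table. Of the 11 chaperone and folding genes with a window 7 held it (Hspa5, Hsp90b1, Dnajc3, Pdia6, Calr, Canx and Creld2), as did the degradation genes Syvn1 and Derl3, and none of the 6 ATF4 arm genes. The shorter ERSE-II (ATTGG, 1 base of any kind, CCACG), which also contains a CCAAT box on the other strand, was found in Herpud1 and Dnajb11 and in 0.037% of all promoters. The C/EBP-ATF element (TGATGNAA), the kind of site ATF4 binds with a C/EBP partner, was found in Chac1, Trib3, Asns and Herpud1 and in 3.969% of all promoters. The cyclic AMP response element (CRE, TGACGTCA) was found in Ppp1r15a and in 1.79% of all promoters, and the XBP1 core (UPRE, TGACGTGG) in none of the 27 members and 0.676% of all promoters. The elements of 8 genes are printed 5′ to 3′ in the direction of transcription, capitals marking the motif, which reads as its reverse complement where it lies on the other strand.
Hspa5, ERSE, chr2:34772013-34772055, plus strand: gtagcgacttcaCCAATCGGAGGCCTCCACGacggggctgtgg
Pdia6, ERSE, chr12:17266479-17266521, plus strand: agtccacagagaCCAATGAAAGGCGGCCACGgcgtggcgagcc
Calr, ERSE, chr8:84847063-84847105, minus strand: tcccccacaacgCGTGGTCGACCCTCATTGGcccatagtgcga
Syvn1, ERSE, chr19:6046520-6046562, plus strand: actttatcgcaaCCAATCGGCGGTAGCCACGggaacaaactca
Dnajb11, ERSE-II, chr16:22857847-22857867, plus strand: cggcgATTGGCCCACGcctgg
Herpud1, C/EBP-ATF element then ERSE-II, chr8:94386305-94386399, plus strand: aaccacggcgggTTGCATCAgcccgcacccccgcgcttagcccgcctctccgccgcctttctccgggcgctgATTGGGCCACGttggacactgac
Chac1, C/EBP-ATF element, chr2:119351037-119351068, plus strand: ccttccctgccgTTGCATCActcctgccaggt
Asns, C/EBP-ATF element, chr6:7693213-7693244, minus strand: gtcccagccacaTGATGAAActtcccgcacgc
A match describes the letters of the window and does not show that a factor binds there. No window was held for Hyou1, Manf, Derl1 and Atf6.

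All values are deposited log2 values from robust multi-array averaging (RMA), differences are log2 differences between group means with their standard error (SE), and calls were made with limma on the 28 arrays at an adjusted p under 0.05 (Benjamini-Hochberg, all 22180 genes). The medians of single arrays ran from 5.25 to 5.41, and precision is limited by how many arrays a group has. The markers were those of lung: Sftpc, surfactant protein C of alveolar type 2 cells, lay between 12.99 and 13.23 on all arrays, while the plasma cell gene Jchain lay between 3.17 and 3.64. Nras was lower on the arrays of the genotypes that lack it, except that the array labelled DKO+NAC replicate 4 read 8.08. The Hspa5 difference between DKO+NAC and DKO is therefore also given without it. Other DKO+NAC values include that array, except where arrays were left out in turn. Skeletal muscle markers (9 genes, mean log2 deviation from each gene's mean) stood high on 5 untreated arrays, Control replicate 3 (0.74), NRas-KO replicate 2 (1.35) and DKO replicates 1, 3 and 5 (1.63, 0.51 and 1.07), and on no NAC array. Heart muscle markers (8 genes) lay between 0.214 and 1.037 in HRas-KO, above DKO (-0.36 to 0.107). The part of heart muscle in the differences between DKO and HRas-KO was not tested. The start of the animal code in the sample titles, a possible litter, was shared by no NAC and untreated array and by no untreated DKO array and another group, so litter cannot be told apart from NAC or from the DKO genotype. All HRas-KO+NAC arrays shared 1 code start, as did most Control+NAC and most DKO arrays. If it marks litters, these animals are littermates and the SE may be too small. Deviations of arrays from different groups with the same code start had a mean correlation of 0.146 (28 pairs). In whole lung, fewer cells of a type and less RNA per cell cannot be told apart.

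DKO lungs differed from the other untreated lungs in a few members, some higher and some lower, and no member passed the threshold in HRas-KO or NRas-KO against Control. In DKO against Control, 3 of the 31 members were called higher (9.68%, beside 2.48% of all genes tested) and 1 was called lower (3.23%, beside 1.35%). Against HRas-KO, 4 were higher in DKO (3.3% of all genes were) and 0 lower (2.32% of all genes), and against NRas-KO, 2 were higher (3.2%) and 1 lower (1.75%). These 3 comparisons share the DKO arrays. Another quantile normalization gave 450 genes higher and 438 lower in DKO against Control, in place of 550 and 300, and 581 and 517 against NRas-KO, in place of 710 and 388. Derl1 and Atf6 were called in all 3, Hspa5 against Control and HRas-KO, Pdia6 against Control and NRas-KO, and Herpud1 against HRas-KO. In HRas-KO and NRas-KO against Control limma called 0% of all genes, and 1 and 0 members had an unadjusted p under 0.05, as did 0.857% and 1.04% of all genes. No member was called for a DKO difference beyond the sum of the single differences (0.225% of all genes were called, and 5 members, or 16.1%, had an unadjusted p under 0.05, beside 9.57% of all genes). Of all genes 31 were higher and 19 lower there, against 26 and 33 after another quantile normalization and 43 and 13 with arrays centred on their median.

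NAC called 7 members in Control lungs, 6 in HRas-KO lungs, 2 in NRas-KO lungs and 6 in DKO lungs, none of them among the 6 genes of the ATF4 arm. In Control lungs 5 members were called higher with NAC (16.1%, beside 7.86% of all genes) and 2 lower (6.45%, beside 5.68%). In HRas-KO lungs 5 were higher (6.73% of all genes were) and 1 lower (5.1%), in NRas-KO lungs 1 was higher (2.86%) and 1 lower (3.56%), and in DKO lungs 3 were higher (5.74%) and 3 lower (6.46%). The members' shares of lower calls lay near those of all genes. Within the NAC arm no member was called in DKO+NAC, HRas-KO+NAC or NRas-KO+NAC against Control+NAC, with 0% of all genes called in each, and 10, 1 and 4 members had an unadjusted p under 0.05. These are 32.3%, 3.23% and 12.9% of the members, beside 9.54%, 6.35% and 10.5% of all genes, so the counts of the single knockouts lay near the background. The change of the DKO difference with NAC called 0 members higher (0.117% of all genes) and 1 lower (0.271%), which was Hspa5. All genes called there were 26 higher and 60 lower, against 25 and 26 after another quantile normalization and 25 and 103 with arrays centred on their median. Over the 14 comparisons 11 members were called at least once and 20 in none.

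**Figure D1:**
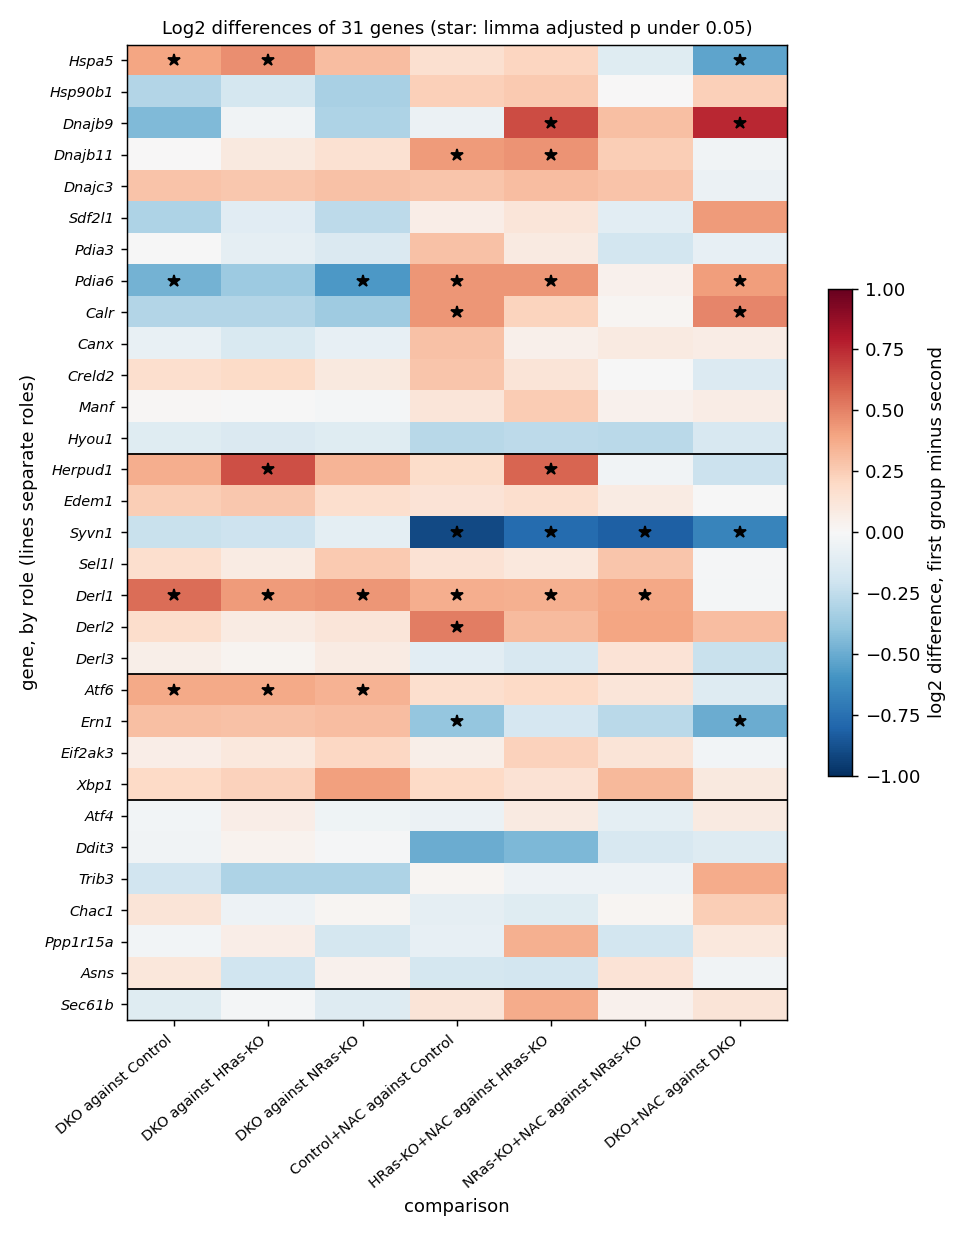
Log2 difference of each of the 31 members (rows, by role) in the main comparisons (columns), as estimated by limma, with the called ones marked. Syvn1 is lower in each of the 4 NAC comparisons, Hspa5 is higher in DKO against Control and lower in DKO+NAC against DKO, and no ATF4 arm gene is marked.

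Hspa5 encodes BiP, the main ER chaperone, which also holds the sensors inactive. Its log2 values were 8.49, 8.24 and 8.26 in Control, 8.29, 8.30 and 8.21 in HRas-KO, 8.22, 8.51 and 8.54 in NRas-KO, and 8.78, 8.75, 8.60, 8.80 and 8.72 in DKO. All 5 DKO arrays lay above all 9 other untreated arrays. The DKO mean exceeded that of Control by 0.40 ± 0.09 (SE; 1.32-fold, adjusted p = 0.0153) and that of HRas-KO by 0.46 ± 0.09 (adjusted p = 0.00352). With NAC the values were 8.58, 8.44, 8.49 and 8.45 in Control+NAC, 8.54, 8.45 and 8.46 in HRas-KO+NAC, 8.23, 8.24 and 8.44 in NRas-KO+NAC, and 8.10, 8.14, 8.12 and 8.46 in DKO+NAC. The group that was highest without NAC thus had the lowest mean with it, and the highest DKO+NAC array was the one whose Nras value goes against its label. DKO+NAC lay 0.52 ± 0.09 below DKO (1.44-fold, adjusted p = 0.000237), and 0.61 below without that array. Both comparisons rest on the same 5 DKO arrays. The Hspa5 difference with NAC was 0.16 ± 0.10 in Control (adjusted p = 0.308), and the DKO difference moved by -0.68 ± 0.13 between the arms (adjusted p = 0.024). That last call was lost without Control replicate 2, Control+NAC replicate 1 or DKO+NAC replicate 1 (adjusted p up to 0.0695), after another quantile normalization (-0.58, adjusted p = 0.06) and without the 5 arrays high in muscle markers (-0.69, adjusted p = 0.0748). The call against Control was lost without Control replicate 2 or 3 (up to 0.104) and without the 5 arrays high in muscle markers, where Hspa5 differed by 0.41 (adjusted p = 0.171). Without those 5 the fall in DKO+NAC was 0.57 (adjusted p = 0.00439).

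Pdia6, a protein disulfide isomerase of the ER, went the other way in DKO. It read 9.35, 9.46 and 9.72 in Control, 9.34, 9.28 and 9.59 in HRas-KO, 9.33, 9.66 and 9.84 in NRas-KO, and 8.93, 9.15, 8.85, 9.33 and 8.94 in DKO. The DKO arrays lay below every Control and NRas-KO array, the highest DKO array lying close to the lowest of them. The mean was lower in DKO by 0.47 ± 0.13 than in Control (adjusted p = 0.0399) and by 0.57 ± 0.13 than in NRas-KO (adjusted p = 0.00934). The first of these was lost without any of the 3 Control arrays or DKO replicate 1, 3 or 5 (adjusted p up to 0.207), with the code start as a random block (-0.44, adjusted p = 0.0764) and with arrays centred on their median (-0.45, adjusted p = 0.0523), the second without NRas-KO replicate 2 or 3 (up to 0.0898). Without the 5 arrays high in muscle markers the differences were -0.16 (adjusted p = 0.834) and -0.35 (adjusted p = 0.495), and the part of muscle in them was not tested otherwise. With NAC, Pdia6 read 10.11, 9.93, 9.85 and 9.91 in Control+NAC, 9.91, 9.74 and 9.88 in HRas-KO+NAC, 9.80, 9.32 and 9.84 in NRas-KO+NAC, and 9.38, 9.38, 9.51 and 9.57 in DKO+NAC. NAC groups lay above their untreated counterparts in all genotypes but NRas-KO, where they overlapped. The rise was 0.44 ± 0.14 in Control (adjusted p = 0.0315), 0.44 ± 0.15 in HRas-KO (adjusted p = 0.0475) and 0.42 ± 0.12 in DKO (adjusted p = 0.0199), beside 0.04 ± 0.15 in NRas-KO (adjusted p = 0.916). Each of the 3 calls was lost when some single arrays were left out: Control replicates 1 and 2 and Control+NAC replicate 1 (adjusted p up to 0.168), HRas-KO replicates 1 and 2 and each HRas-KO+NAC array (up to 0.182), and DKO replicate 1 and DKO+NAC replicates 3 and 4 (up to 0.0573). The rise in DKO was 0.22 (adjusted p = 0.444) without the 5 arrays high in muscle markers. Another quantile normalization ended the calls in Control (adjusted p = 0.0557) and HRas-KO (0.0798), and the code start as a random block the one in HRas-KO (0.0798).

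Calr encodes calreticulin, a lectin chaperone of newly made glycoproteins. Its values were 10.01, 10.19 and 10.10 in Control and 10.63, 10.60, 10.49 and 10.42 in Control+NAC, and 9.52, 9.91, 9.64, 10.04 and 9.90 in DKO and 10.19, 10.26, 10.29 and 10.43 in DKO+NAC. The NAC arrays lay above the untreated ones in each pair of groups. The rise was 0.44 ± 0.13 in Control (adjusted p = 0.0197), lost without Control replicate 1 or Control+NAC replicate 1 (adjusted p up to 0.0957), and 0.49 ± 0.11 in DKO (adjusted p = 0.0041), kept with each array left out in turn but not without the 5 arrays high in muscle markers (0.31, adjusted p = 0.181). In HRas-KO and NRas-KO the NAC differences were 0.22 ± 0.13 (adjusted p = 0.322) and 0.02 ± 0.13 (adjusted p = 0.968).

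Dnajb9 (ERdj4) and Dnajb11 (ERdj3) are J-domain partners of BiP. Dnajb9 read 8.48, 8.56, 8.77, 8.50 and 8.70 in DKO and 9.27, 9.50, 9.36 and 9.30 in DKO+NAC, and 8.56, 8.41 and 8.95 in HRas-KO and 9.29, 9.23 and 9.36 in HRas-KO+NAC. Groups with and without NAC did not overlap in these genotypes, and Dnajb9 rose by 0.76 ± 0.15 (1.69-fold, adjusted p = 0.00129) and 0.65 ± 0.18 (adjusted p = 0.0182). In Control, where the arrays overlapped, its NAC difference was -0.06 ± 0.17 (adjusted p = 0.862), and the DKO difference moved by 0.82 ± 0.23 between the arms (adjusted p = 0.0992). The second of these calls was lost without HRas-KO replicate 1 or 2 or HRas-KO+NAC replicate 1 or 3 (adjusted p up to 0.108). Dnajb11 read 7.56, 7.99 and 7.92 in Control and 8.25, 8.16, 8.18 and 8.39 in Control+NAC, and 7.87, 7.46 and 7.85 in HRas-KO and 8.31, 8.10 and 8.12 in HRas-KO+NAC. It rose by 0.42 ± 0.13 in Control (adjusted p = 0.0358) and 0.45 ± 0.14 in HRas-KO (adjusted p = 0.0419). Those calls were lost without Control replicate 1 or Control+NAC replicate 1, 3 or 4 (adjusted p up to 0.245), and without HRas-KO replicate 2 or 3 or any HRas-KO+NAC array (up to 0.25). Both were also lost after another quantile normalization (adjusted p = 0.0618 and 0.0643) and without the 5 arrays high in muscle markers (0.06 and 0.0615), and the HRas-KO call with the code start as a random block (0.0768).

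The other 8 folding members, Hsp90b1 (GRP94, the ER form of HSP90), Dnajc3 (p58IPK), Sdf2l1, Pdia3 (ERp57, the partner of calreticulin and calnexin), Canx (calnexin), Creld2, Manf and Hyou1 (GRP170, a nucleotide exchange factor for BiP), were called in no comparison. Closest was Sdf2l1 in DKO+NAC against DKO, at 0.43 ± 0.14 (adjusted p = 0.0502). Hsp90b1 had its lowest group mean in DKO (10.67) and its highest in Control+NAC (11.20), the same extremes as Pdia6, Calr and Canx. Hyou1 ran against its group with NAC, with 6 of the 14 NAC arrays below all untreated arrays and none above them, while Dnajb11 had 9 NAC arrays above all untreated arrays. Of the 13 folding members 11 had an estimate above 0 for NAC in Control (median 0.28) and 12 in HRas-KO (median 0.22), against 8 in NRas-KO (median 0.02) and 7 in DKO (median 0.07). The medians over all genes tested were between 0.01 and 0.03 in these 4 comparisons.

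**Figure D2:**
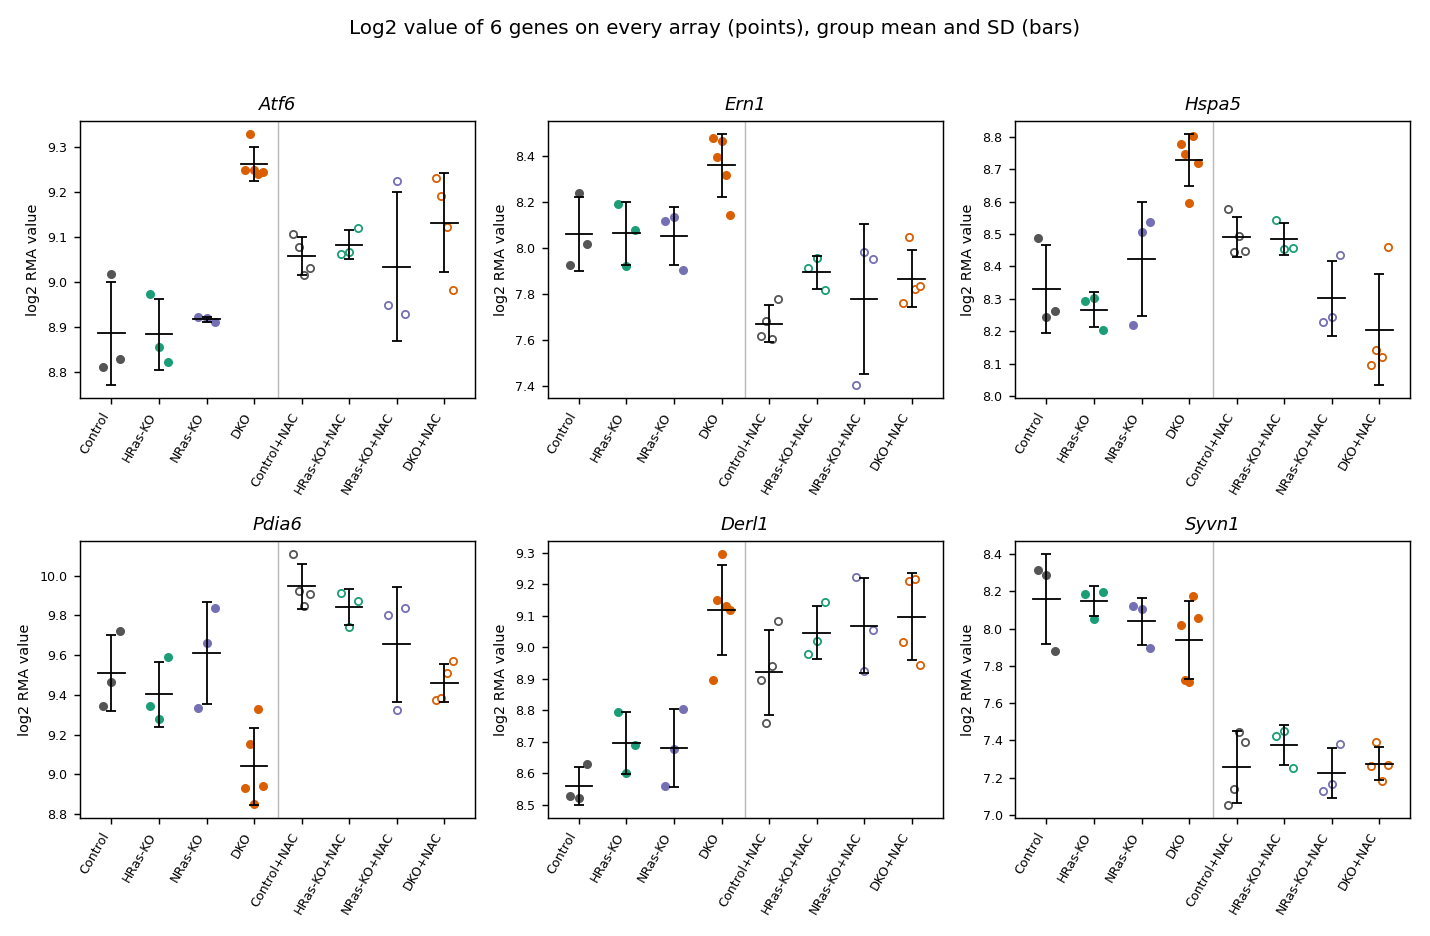
Log2 RMA values of the members called most often, a panel per gene, with a point for each array, the group mean and SD as bars, and NAC groups as open points right of the line. All 14 NAC arrays lie below all 14 untreated arrays for Syvn1, and the 5 DKO arrays lie above the other untreated arrays for Hspa5 and Atf6.

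Syvn1 encodes HRD1, the ubiquitin ligase of the ER membrane that marks misfolded proteins for the proteasome. It had the widest range of group means of all 31 members, 0.94. Untreated arrays read 8.31, 8.29 and 7.88 in Control, 8.19, 8.05 and 8.20 in HRas-KO, 8.12, 8.10 and 7.89 in NRas-KO, and 8.02, 7.73, 7.71, 8.18 and 8.06 in DKO. NAC arrays read 7.05, 7.14, 7.44 and 7.39 in Control+NAC, 7.42, 7.45 and 7.25 in HRas-KO+NAC, 7.13, 7.17 and 7.38 in NRas-KO+NAC, and 7.26, 7.39, 7.18 and 7.27 in DKO+NAC. The arms did not overlap: the highest of the 14 NAC arrays was at 7.45 and the lowest of the 14 untreated arrays at 7.71. Syvn1 fell with NAC by 0.90 ± 0.12 in Control (1.87-fold, adjusted p = 5.35e-05), 0.77 ± 0.13 in HRas-KO (adjusted p = 0.000467), 0.82 ± 0.13 in NRas-KO (adjusted p = 0.000644) and 0.66 ± 0.11 in DKO (adjusted p = 0.000251). Each of the 4 calls was kept with any array left out and without the 5 arrays high in muscle markers. Syvn1 was the single member called in all 4 NAC comparisons. Its change did not differ between DKO and Control past the threshold (0.24 ± 0.17, adjusted p = 0.57), and no genotype difference in either arm was called. Sel1l, the partner that stabilises HRD1, had its group means within 0.29 of each other and was not called in any comparison.

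Derl1, Derl2 and Derl3 encode derlins, membrane proteins of the channel through which misfolded proteins leave the ER. Derl1 read 8.53, 8.52 and 8.63 in Control, 8.79, 8.60 and 8.69 in HRas-KO, 8.56, 8.68 and 8.80 in NRas-KO, and 8.90, 9.15, 9.30, 9.13 and 9.12 in DKO. Every DKO array was above every other untreated array. The DKO mean was higher by 0.56 ± 0.10 than in Control (1.47-fold, adjusted p = 0.00155), 0.42 ± 0.10 than in HRas-KO (adjusted p = 0.0104) and 0.44 ± 0.10 than in NRas-KO (adjusted p = 0.00849). The first held with every array left out, and at 0.62 (adjusted p = 0.0292) without the 5 arrays high in muscle markers. The others were lost without those 5 (adjusted p = 0.0533 and 0.126), and without HRas-KO replicate 2 (0.0813) and NRas-KO replicate 1 (0.0654) respectively.

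With NAC Derl1 read 8.90, 8.76, 8.94 and 9.08 in Control+NAC, 8.98, 9.02 and 9.14 in HRas-KO+NAC, 9.22, 8.92 and 9.05 in NRas-KO+NAC, and 9.02, 9.21, 9.22 and 8.94 in DKO+NAC. The first 3 groups lay above their untreated counterparts and overlapped with the untreated DKO arrays, while DKO and DKO+NAC overlapped. The rise was 0.36 ± 0.10 in Control (adjusted p = 0.0195), 0.35 ± 0.11 in HRas-KO (adjusted p = 0.0364) and 0.39 ± 0.11 in NRas-KO (adjusted p = 0.0325), beside -0.02 ± 0.09 in DKO (adjusted p = 0.918). The change of the DKO difference, -0.38 ± 0.14, did not pass (adjusted p = 0.2). The rises were lost without Control replicate 1 or 2 or Control+NAC replicate 4 (adjusted p up to 0.0879), without HRas-KO replicate 2 or 3 or any HRas-KO+NAC array (up to 0.15), and without NRas-KO replicate 1 or 2 or NRas-KO+NAC replicate 1 or 3 (up to 0.155). The HRas-KO rise was also lost after another quantile normalization (adjusted p = 0.0937) and with the code start as a random block (0.0579), and the NRas-KO rise without the 5 arrays high in muscle markers (0.0796).

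Derl2 read 6.33, 6.21 and 6.37 in Control and 6.77, 6.59, 7.03 and 6.88 in Control+NAC, a rise of 0.51 ± 0.14 (adjusted p = 0.0182) that was lost without Control replicate 1 or 2 or Control+NAC replicate 3 (adjusted p up to 0.0956). Of all 14 NAC arrays 9 lay above every untreated array for Derl2. Its differences in the other genotypes were between 0.31 and 0.39 and did not pass. Derl3 was dim, between 3.95 and 4.62 on all arrays, and was not called. Herpud1, a scaffold of the degradation complex, read 9.80, 9.92 and 10.61 in HRas-KO, 10.76, 10.73 and 10.58 in HRas-KO+NAC, and 10.50, 10.86, 10.85, 10.78 and 10.79 in DKO. A single HRas-KO array overlapped with both other groups. Herpud1 was higher than in HRas-KO by 0.64 ± 0.15 in DKO (adjusted p = 0.0131) and by 0.58 ± 0.17 in HRas-KO+NAC (adjusted p = 0.0282). Without HRas-KO replicate 1 or 2 these calls were lost (adjusted p up to 0.13 and 0.18), the second also without HRas-KO+NAC replicate 1 or 2. The DKO call was lost as well without the 5 arrays high in muscle markers (0.71, adjusted p = 0.0598), and the NAC call with the code start as a random block (0.54, adjusted p = 0.0502). Edem1, a lectin that directs glycoproteins to degradation, had its highest group mean in DKO (8.63) and was not called.

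Among the sensors Atf6 was raised in DKO and Ern1 fell with NAC. Atf6 read 8.81, 9.02 and 8.83 in Control, 8.97, 8.86 and 8.82 in HRas-KO, 8.92, 8.92 and 8.91 in NRas-KO, and 9.25, 9.33, 9.25, 9.24 and 9.24 in DKO. The DKO arrays lay above all other untreated arrays and close to each other (SD 0.04). Atf6 was higher in DKO by 0.38 ± 0.08 than in Control (1.30-fold, adjusted p = 0.00705), 0.38 ± 0.08 than in HRas-KO (adjusted p = 0.00468) and 0.35 ± 0.08 than in NRas-KO (adjusted p = 0.00971). The first was lost without Control replicate 1 (adjusted p = 0.0593) and the last after another quantile normalization (0.25, adjusted p = 0.0585). Without the 5 arrays high in muscle markers the differences stayed between 0.37 and 0.40, with adjusted p of 0.161, 0.0489 and 0.182. In the NAC arm Atf6 read 9.11, 9.08, 9.02 and 9.03 in Control+NAC, 9.06, 9.07 and 9.12 in HRas-KO+NAC, 8.95, 9.22 and 8.93 in NRas-KO+NAC, and 9.23, 9.19, 9.12 and 8.98 in DKO+NAC. DKO+NAC overlapped with the other NAC groups, and the change of the DKO difference with NAC was -0.30 without passing the threshold.

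Ern1 read 7.92, 8.24 and 8.02 in Control, 8.19, 7.92 and 8.08 in HRas-KO, 8.12, 8.13 and 7.91 in NRas-KO, and 8.48, 8.40, 8.46, 8.32 and 8.14 in DKO. With NAC it read 7.62, 7.68, 7.60 and 7.78 in Control+NAC, 7.91, 7.96 and 7.82 in HRas-KO+NAC, 7.41, 7.98 and 7.95 in NRas-KO+NAC, and 7.76, 8.05, 7.82 and 7.84 in DKO+NAC. Of the 14 NAC arrays 9 lay below every untreated array. Ern1 fell by 0.39 ± 0.12 in Control (adjusted p = 0.0317) and 0.49 ± 0.11 in DKO (1.41-fold, adjusted p = 0.00279). The differences were -0.17 ± 0.13 in HRas-KO (adjusted p = 0.466) and -0.27 ± 0.13 in NRas-KO (adjusted p = 0.236). The DKO call was kept with each array left out, and the Control call was lost without Control replicate 2 or 3 or Control+NAC replicate 1 or 3 (adjusted p up to 0.195), with the code start as a random block (-0.39, adjusted p = 0.0545) and without the 5 arrays high in muscle markers (-0.41, adjusted p = 0.056).

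Eif2ak3 and Xbp1 were not called. Eif2ak3 read 6.98, 7.14 and 7.33 in Control, 7.13, 6.95 and 7.25 in HRas-KO, 6.81, 7.14 and 7.07 in NRas-KO, and 7.35, 6.998, 7.33, 7.23 and 7.18 in DKO, and its NAC arrays lay between 6.95 and 7.53. No group lay apart from the Control group of its arm. Xbp1 read 9.22, 9.27 and 9.12 in Control, 9.28, 9.12 and 9.13 in HRas-KO, 9.08, 8.82 and 9.08 in NRas-KO, and 9.13, 9.77, 9.20, 9.63 and 9.30 in DKO, with NAC arrays between 9.17 and 9.79. DKO lay above NRas-KO in every array, by 0.41 in the mean, with an adjusted p of 0.079.

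The 6 ATF4 arm genes were called in none of the 14 comparisons, and 6 of their 84 tests had an unadjusted p under 0.05 (7.14%, beside 14.2% of the tests over all genes). With at most 7.86% of all genes called higher and at most 6.46% called lower in a comparison, a count of 0 among 6 genes lay near the background. Atf4 itself had the narrowest range of group means of all members, from 8.87 in HRas-KO to 9.03 in DKO+NAC. Ddit3 (CHOP, a factor of prolonged stress) read 6.44, 6.29 and 6.16 in Control, 6.27, 6.0 and 6.41 in HRas-KO, 6.30, 6.33 and 6.20 in NRas-KO, and 6.16, 6.32, 6.29, 6.28 and 6.25 in DKO. With NAC it read 5.94, 5.77, 5.60 and 5.88 in Control+NAC, 5.81, 5.69 and 5.84 in HRas-KO+NAC, 6.73, 5.81 and 5.80 in NRas-KO+NAC, and 5.78, 6.76, 6.09 and 5.89 in DKO+NAC. Thus 11 of the 14 NAC arrays lay below every untreated array and 2, NRas-KO+NAC replicate 1 and DKO+NAC replicate 2, above them all. The NAC difference was -0.50 ± 0.19 in Control (adjusted p = 0.0765), -0.45 ± 0.20 in HRas-KO (adjusted p = 0.156), -0.16 ± 0.20 in NRas-KO (adjusted p = 0.725) and -0.13 ± 0.16 in DKO (adjusted p = 0.688).

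The other ATF4 arm genes were not called either, and their estimates against Control+NAC within the NAC arm were mostly above 0, as counted below. Chac1, which degrades glutathione, read 5.32, 6.16, 5.60 and 5.40 in DKO+NAC, the second of these its highest value on any array, against 5.20, 5.41, 5.04 and 4.96 in Control+NAC (a difference of 0.47 ± 0.17, adjusted p = 0.383). Ppp1r15a (GADD34), which reverses eIF2 phosphorylation, read 7.32, 7.62 and 7.47 in HRas-KO and 7.91, 7.75 and 7.82 in HRas-KO+NAC, a difference of 0.36 ± 0.13 (adjusted p = 0.0706) with no overlap. Trib3, a pseudokinase induced by CHOP, read 5.91, 5.78, 5.39, 5.79 and 5.36 in DKO and 5.68, 6.13, 5.88 and 6.38 in DKO+NAC, a difference of 0.37 ± 0.15 (adjusted p = 0.111) with overlap. Asns (asparagine synthetase) varied most within groups of all members, with a root mean square SD of 0.32, and its arrays overlapped between all untreated groups. Sec61b, a translocon subunit, was dim (4.66 to 5.62) and was not called.

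**Figure D3:**
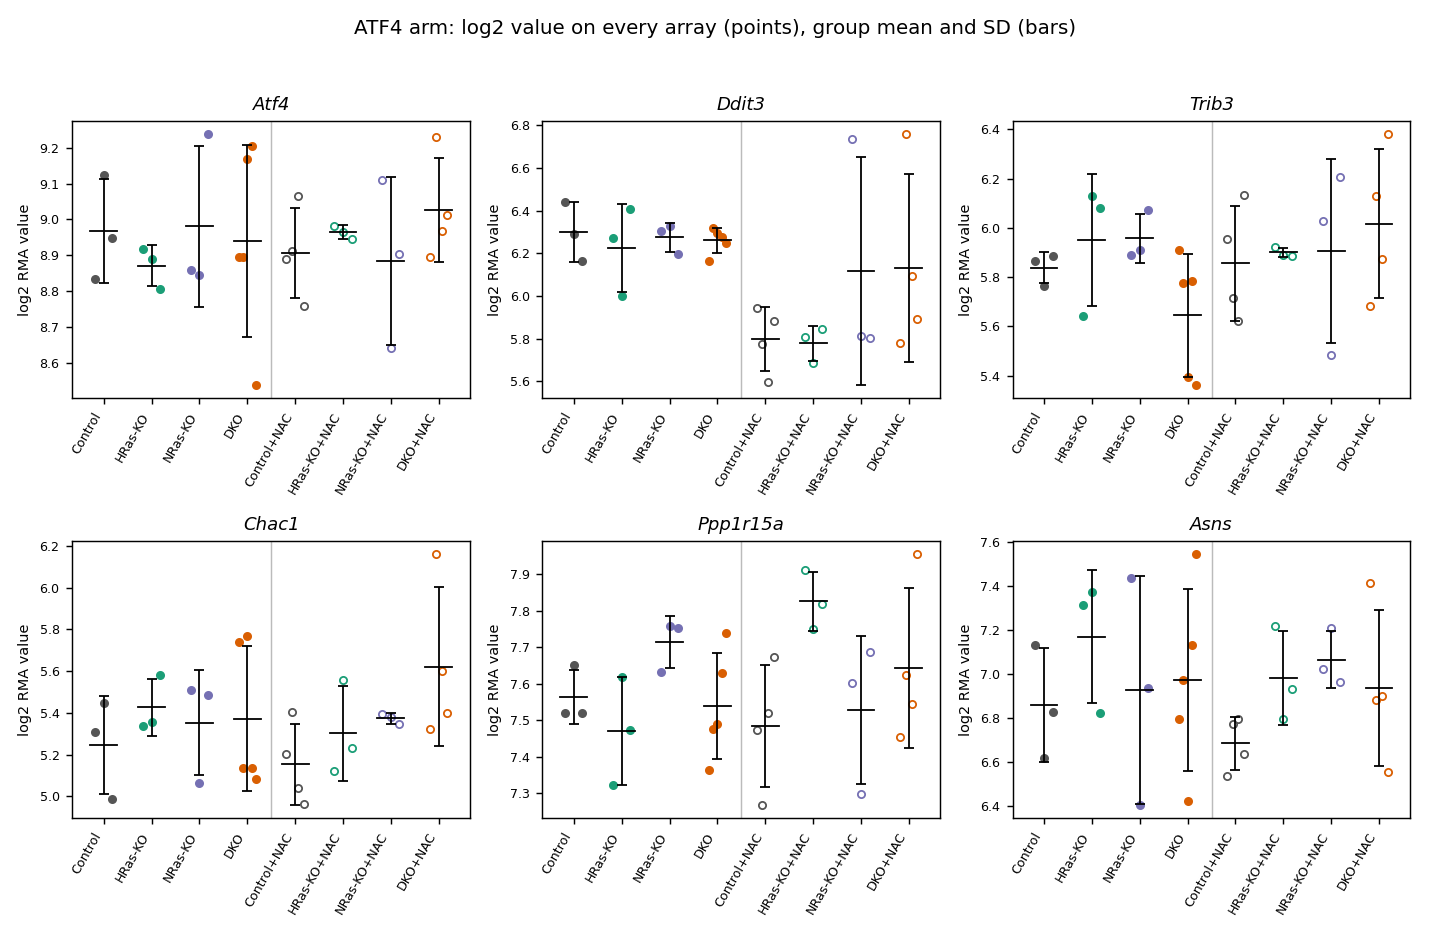
Log2 RMA values of the 6 ATF4 arm genes, a panel per gene, with a point for each array and the group mean and SD as bars. For Ddit3, 11 of the 14 NAC arrays lie below all untreated arrays and 2 lie above them; Atf4 shows no separation of groups.

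The folding genes and the ATF4 arm were also set against each other. Their contrast is given as the median log2 difference of the 13 folding genes minus that of the 6 ATF4 arm genes, a description with no test since the lists were made with earlier results known. For NAC it was 0.36 in Control lungs, 0.31 in HRas-KO lungs, 0.09 in NRas-KO lungs and -0.02 in DKO lungs. With single arrays left out the value in Control lay between 0.24 and 0.51, the upper end without Control replicate 3, the only Control array high in muscle markers. For DKO against Control it was -0.05, against HRas-KO -0.08 and against NRas-KO -0.09, the last changing sign to 0.16 without the 5 arrays high in muscle markers. Within the NAC arm it was -0.46 for DKO, -0.20 for HRas-KO and -0.34 for NRas-KO against Control+NAC: the folding genes had medians of -0.25, -0.10 and -0.20 and the ATF4 arm 0.21, 0.10 and 0.14. Of the 13 folding genes 2, 4 and 3 had an estimate above 0 there, and of the 6 ATF4 arm genes 6, 5 and 5. These comparisons share the Control+NAC arrays. The smallest p among members in DKO+NAC against Control+NAC belonged to Pdia6, Pdia3 and Dnajb11, with differences of -0.49 ± 0.13, -0.39 ± 0.10 and -0.45 ± 0.12 (adjusted p = 0.217, 0.231 and 0.238), whose groups did not overlap.

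Array by array, the mean deviation of the folding genes minus that of the ATF4 arm was 0.37, 0.32, 0.36 and 0.26 in Control+NAC, above every other array. It was 0.10, 0.13 and 0.19 in HRas-KO+NAC, -0.05, 0.02 and 0.02 in NRas-KO+NAC, and 0.015, -0.420, 0.004 and -0.008 in DKO+NAC. Untreated arrays read -0.19, -0.03 and 0.14 in Control, -0.12, -0.30 and -0.02 in HRas-KO, -0.35, 0.13 and -0.03 in NRas-KO, and -0.18, -0.02, -0.13, -0.15 and -0.05 in DKO. The lowest array, DKO+NAC replicate 2, also had the highest mean of the ATF4 arm (0.33), with its high Ddit3 and Chac1 values. The 2 highest untreated values, Control replicate 3 and NRas-KO replicate 2, came from arrays high in muscle markers. The other arrays high in these markers, DKO replicates 1, 3 and 5, read -0.18, -0.13 and -0.05. The part of muscle was not tested.

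**Figure D4:**
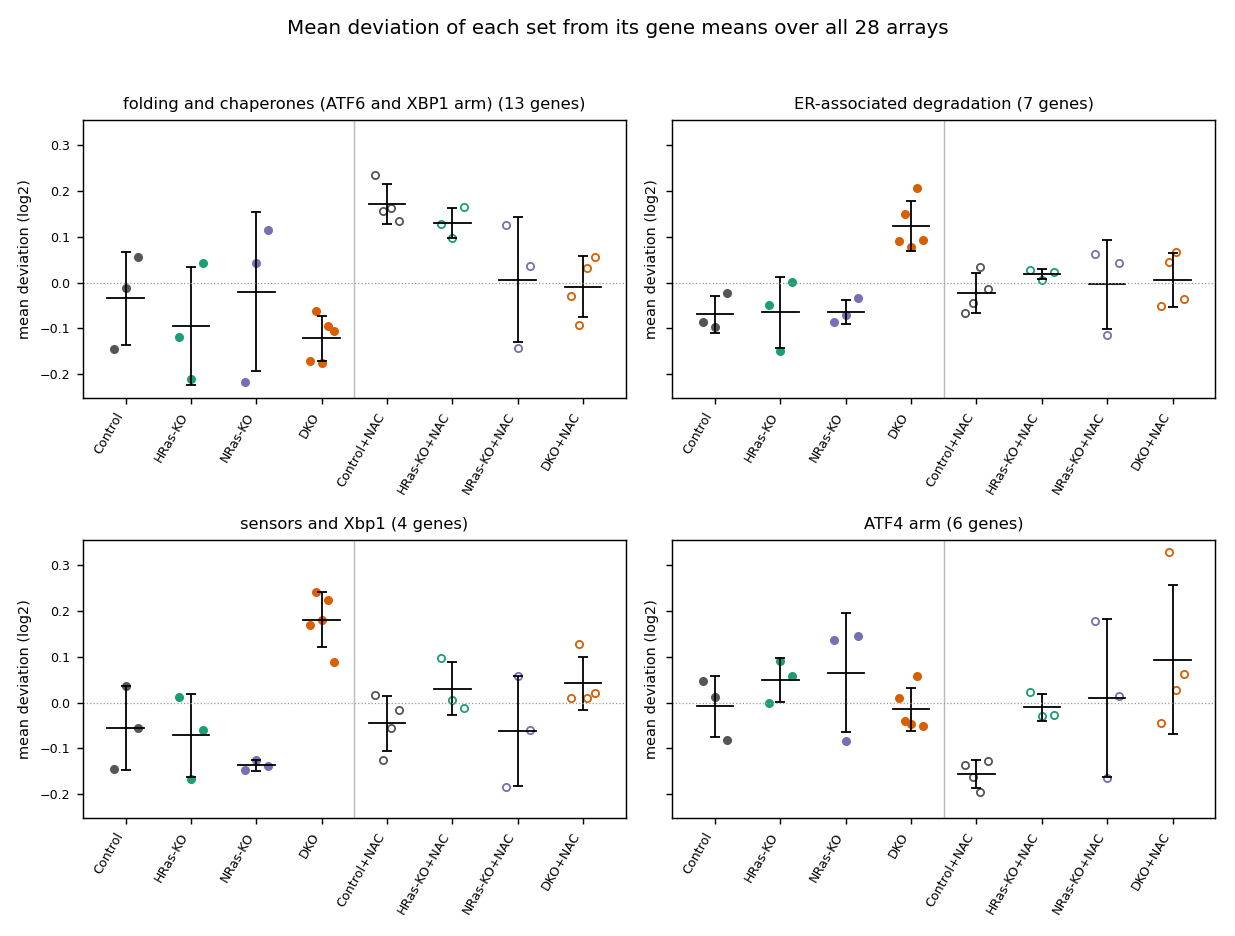
Mean log2 deviation from each gene's mean over all arrays, a panel for each of 4 roles (folding, degradation, sensors with Xbp1, ATF4 arm), with a point per array and group means and SD as bars. The folding genes minus the ATF4 arm are highest on the 4 Control+NAC arrays (0.26 to 0.37) and lowest on DKO+NAC replicate 2 (-0.42), whose ATF4 arm point is at 0.33.

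Other genes of the same pathways were read from wider lists. Of 39 further ER folding, transport and degradation genes, 6 were called higher (15.4%, beside 2.48% of all genes) and 1 lower (2.56%, beside 1.35%, near the background) in DKO against Control. The raised ones include Uggt1, the glucosyltransferase that returns misfolded glycoproteins to calnexin and calreticulin (0.53 ± 0.11, adjusted p = 0.00533), Ssr2 (0.38 ± 0.08, adjusted p = 0.0109), a subunit of the translocon-associated complex, and Kdelr2, a receptor that returns ER proteins from the Golgi (0.68 ± 0.17, adjusted p = 0.0229). The lowered one was Os9, a lectin of the HRD1 complex (-0.33 ± 0.08, adjusted p = 0.0159). With NAC 13 of the 39 were higher in Control (33.3%, beside 7.86% of all genes), 11 in HRas-KO (28.2%, beside 6.73%), 6 in NRas-KO (15.4%, beside 2.86%) and 6 in DKO (15.4%, beside 5.74%). In the same order 1, 0, 1 and 4 were lower (2.56%, 0%, 2.56% and 10.3%, beside 5.68%, 5.1%, 3.56% and 6.46%), which in the first 3 genotypes is under the background. Dnajc10, a disulfide reductase partner of BiP, rose in all 4 (0.78, 0.72, 0.72 and 0.84), as did the signal peptidase subunit Spcs2 (0.60, 0.63, 0.70 and 0.48). The falls in DKO included Uggt1 (-0.50 ± 0.10, adjusted p = 0.00127), Kdelr3 (-0.69 ± 0.14, adjusted p = 0.00127) and Kdelr2 (-0.66 ± 0.16, adjusted p = 0.00607). Kdelr3 was also among those higher in DKO than in Control (0.57 ± 0.15, adjusted p = 0.0297), so Uggt1, Kdelr2 and Kdelr3, like Hspa5, were called higher in DKO than in Control and lower in DKO+NAC than in DKO, comparisons that share the DKO arrays.

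Of 20 further sensor relatives and eIF2 control genes NAC called 3 higher and 4 lower in Control lungs (7.86% and 5.68% of all genes were). The counts were 2 and 2 in HRas-KO lungs (6.73% and 5.1%), 1 and 2 in NRas-KO lungs (2.86% and 3.56%), and 2 and 3 in DKO lungs (5.74% and 6.46%). Counts of 1 or 2 lay near these shares. Creb3l1 and Creb3l2 of this list, membrane-bound factors related to ATF6, fell with NAC in all 4 genotypes. The falls were 0.97, 1.13, 1.19 and 0.49 and 0.91, 0.87, 0.61 and 0.47 in Control, HRas-KO, NRas-KO and DKO. Mbtps2, the protease that releases ATF6 and its relatives, rose in all 4 (0.71, 0.51, 0.72 and 0.40). Creb3l1 was also lower in DKO than in Control (-0.57 ± 0.16, adjusted p = 0.041). Fibroblast markers moved with NAC as well: Col1a1 fell by 1.01, 1.06, 1.26 and 1.24. Of the 8 listed markers 2, 3, 4 and 5 were called lower, beside 5.68%, 5.1%, 3.56% and 6.46% of all genes. Another, Tcf21, was called higher in DKO with NAC (0.58 ± 0.17, adjusted p = 0.0218), beside 5.74% of all genes. The summed level of the 8 markers, as mean deviation per array, lay between -0.04 and 0.50 in the untreated groups. In the NAC groups it lay between -0.389 and -0.004, and its part in the NAC results was not tested. Fibroblast markers were not alone. In Control lungs the mean of macrophage markers went from 0.085 to -0.115 with NAC and that of cartilage markers from 0.07 to -0.161, without overlap. In DKO lungs both lists overlapped, and their part was not tested either. Of 26 further ATF4 and amino acid response genes, 2 were higher in DKO than in Control (7.69%, beside 2.48% of all genes), the growth inhibitors Sesn2 (0.85 ± 0.20, adjusted p = 0.0146) and Ddit4 (0.82 ± 0.22, adjusted p = 0.0354), and 1 was lower (3.85%, beside 1.35%), Atf5 (-0.54 ± 0.14, adjusted p = 0.0231). NAC in DKO called 0 of these 26 higher (beside 5.74% of all genes) and 4 lower (15.4%, beside 6.46%): Sesn2, Ddit4 and the amino acid transporter subunits Slc7a5 (-0.87 ± 0.15, adjusted p = 0.000298) and Slc3a2 (-0.60 ± 0.16, adjusted p = 0.0114).

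Markers of red cells also differed in DKO lungs, and single alveolar type 2 and endothelial markers differed in both directions. Of 4 measured erythroid markers 2 were called higher in DKO than in Control (2.48% of all genes were), Hbb-y by 1.15 ± 0.28 (adjusted p = 0.0189). In DKO+NAC against DKO 3 of them were called lower (6.46% of all genes were), the same direction as Hspa5. The mean deviation of the erythroid markers was between 0.24 and 1.20 on DKO arrays and between -0.54 and 0.30 on all others. Of 10 alveolar type 2 markers 2, Lamp3 and Etv5, were called lower in DKO than in Control (1.35% of all genes were). Another, Napsa, was called higher in DKO than in NRas-KO (0.38 ± 0.09, adjusted p = 0.0171), beside 3.2% of all genes. The large Etv5 difference (-1.18 ± 0.15, adjusted p = 8.69e-05) also enters the mean of the list. The list's mean deviation was between -0.216 and 0.013 on DKO arrays and between 0.018 and 0.265 on the other untreated ones. On NAC arrays it lay between -0.276 and 0.023, so a low level was not particular to DKO. With NAC its group mean went from 0.114 to -0.019 in Control and from 0.192 to -0.076 in HRas-KO, without overlap. Its part in the NAC results was not tested. Of 7 endothelial markers 3 were called, Kdr (-0.95 ± 0.15, adjusted p = 0.000497) and Tie1 (-0.56 ± 0.15, adjusted p = 0.0346) lower (1.35% of all genes were) and Tek (0.62 ± 0.14, adjusted p = 0.01) higher (2.48% of all genes were) in DKO. Their mean deviation overlapped, between -0.214 and 0.069 on DKO arrays and between -0.014 and 0.179 on the other untreated ones. The part of these cell types in the differences of Hspa5, Derl1 and Atf6 was not tested.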

How the data were processed

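Per the labels, total RNA of whole lungs at postnatal day 0 was labelled with biotin for 1-colour arrays. The authors deposited log2 values made by RMA with affy, per the submitters' processing notes (versions and a joint normalization of all arrays are not given in the sources used here). In all, the value table held 41345 probe sets: 23521 with 1 gene symbol in the platform annotation, 1814 with several and 16010 unlisted. The members and lists were chosen with earlier results of these data known. Groups followed each sample's source label. A treatment note names 3 samples as NAC where the labels give 14, and the HRas-KO+NAC titles omit NAC. limma 3.58.1, run in R 4.3.3, estimated 8 group means from the 28 arrays together (20 residual and 5.946 prior degrees of freedom), with Benjamini-Hochberg adjustment over 22180 genes in each of 14 comparisons. The script was tested on simulated data. Replicate numbers come from the labels and did not pair arrays (mean correlation of deviations 0.0212 over 37 same-numbered pairs, 13 of them over 0.1). Members called most often, the 4 smallest p in a comparison and the sensors are given array by array. Alternatives changed the gene's probe set, filter, scaling, moderation, blocks, arrays and minimum fold. The fit without the 5 arrays high in muscle markers was added after seeing the data. A planned look at protein ends was not run. Hras was not analysed here.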

Additional observations from a re-analysis of the deposited data

Results flagged for a closer look

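In 93 groups of 4 to 10 arrays, taken over members, 8 had an array far from the others by Dixon's criterion, which flags about 1 in 20 groups by chance. Hspa5 read 8.461 on the array labelled DKO+NAC replicate 4, whose Nras value also goes against its label, while the other 3 lay between 8.096 and 8.141. Sec61b read 4.656 on DKO+NAC replicate 1, below 5.078 to 5.116 on the others. Among the DKO arrays Canx read 9.963 on replicate 3 (others 10.479 to 10.612), Herpud1 10.498 on replicate 1 (others 10.776 to 10.86), Sel1l 9.022 on replicate 2 (others 9.18 to 9.234) and Atf6 9.33 on replicate 2 (others 9.241 to 9.249). DKO replicates 1 and 3 are among the arrays high in skeletal muscle markers and replicate 2 is not, while replicate 5, also high, had no flagged value. The part of muscle was not tested. Among the Control+NAC arrays Creld2 read 7.934 on replicate 4 (others 8.086 to 8.112) and Manf 6.447 on replicate 1 (others 6.262 to 6.28).

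The DKO difference of Hspa5 changed with NAC by -0.6822 (SE 0.1299, limma adjusted p = 0.024), the single member with a called difference between the arms. The call was lost without Control replicate 2, Control+NAC replicate 1 or DKO+NAC replicate 1, after another quantile normalization and without the 5 arrays high in muscle markers (adjusted p up to 0.0748). All 5 DKO arrays were higher in Hspa5 than the 3 Control arrays, and 3 of the 4 DKO+NAC arrays were lower than the 4 Control+NAC arrays.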

How the results depend on the processing

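None of the 33 member calls changed sign with an array left out, another quantile normalization, array-median centring, either random code block or replicate block, or the muscle-marker fit. Without single arrays the number of members called ran from 2 to 4 for DKO against Control (4 with all arrays), 2 to 5 against HRas-KO (4), 2 to 7 for Control+NAC against Control (7), 1 to 4 for HRas-KO with NAC (6), 1 to 2 for NRas-KO with NAC (2), and 0 to 1 for the NAC change of the DKO difference (1). The contrast between the arms ran from 0.235 to 0.505 for NAC in Control, from -0.245 to -0.107 for HRas-KO+NAC and from -0.375 to -0.266 for NRas-KO+NAC against Control+NAC. With only the arrays of the groups compared, 1 member was called for DKO against Control, 2 against HRas-KO, 0 against NRas-KO, 1 for NAC in NRas-KO and 0 for the NAC change. Another quantile normalization left 3 for NAC in HRas-KO and 0 for the NAC change. Array weights gave 7 for DKO against NRas-KO (3 in the reported fit). The code start as a random block (correlation 0.121) left 2 for NAC in HRas-KO. A minimum of 1.5-fold left 0 for DKO against Control, 1 against HRas-KO and 0 against NRas-KO, and with NAC 1 for Control, 2 for HRas-KO, 1 for NRas-KO and 2 for DKO, by its own construction. Leaving out the 5 arrays high in skeletal muscle markers, an alternative chosen after seeing the data, left 1, 2 and 0 for DKO against Control, HRas-KO and NRas-KO, 1 for NAC in NRas-KO and 0 for the NAC change, and moved the arm contrast to 0.163 for DKO against NRas-KO and 0.505 for NAC in Control. Fits on fewer arrays have fewer degrees of freedom; other causes were not tested.

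With the replicate block, DKO against Control called 2 members in place of 4, and 570 genes in place of 850. The calls it ended were Hspa5 and Pdia6 there (adjusted p = 0.0597 for each) and Pdia6 for NAC in Control (0.0527). The code start as a fixed block could be fitted only for the single knockouts against Control and the 3 genotype comparisons within the NAC arm. Derl3 and Sec61b were dim, which limits what their values can show.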
